A study of Mus musculus with 6 samples.

Results

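The islet hormone genes are the genes that encode the peptide hormones secreted by the endocrine cells of the pancreatic islet. The 8 members were chosen by name, as Ins1, Ins2, Iapp, Gcg, Sst, Ppy, Pyy and Ghrl, out of 55421 gene IDs in each count table, and all 8 passed the filter on low counts that left 17016 genes for testing. They were measured by RNA sequencing in 6 libraries of pancreatic islets from wild-type (WT) C57BL/6 mice, 3 from the vehicle group and 3 from the group stimulated with the ligand insB:9-23. By its title, the study looked for islet genes and pathways affected by the ligand. The sources used here do not give age, sex, dose, route or duration, nor do they settle if mice or isolated islets were exposed, or if a library came from 1 animal or a pool. The p-values below thus refer to the spread among the libraries, part of which may be technical.

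Beta cells, the most numerous islet cells in the mouse, make insulin from a pair of genes, Ins1 and Ins2, and co-secrete amylin from Iapp. Alpha cells secrete glucagon, delta cells somatostatin, PP cells pancreatic polypeptide and the rare epsilon cells ghrelin. Peptide YY, a relative of pancreatic polypeptide, is made by several islet cell types. Each hormone is translated as a larger precursor, cut by prohormone convertases and stored in granules, and insulin, glucagon and somatostatin act on neighbouring islet cells as well as at a distance.

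The ligand's name is that of residues 9 to 23 of the insulin B chain, a segment known as a target of islet autoimmunity, so the members include its own source genes. The coding stretches of the B chain are shown because they place that segment in both genes and show how little separates them. They were read from the transcripts Ins1-201 and Ins2-201 of GENCODE M21 (build GRCm38), taking the B chain as the 30 residues before the first pair of arginines. Capitals mark the codons of residues 9 to 23.
Ins1: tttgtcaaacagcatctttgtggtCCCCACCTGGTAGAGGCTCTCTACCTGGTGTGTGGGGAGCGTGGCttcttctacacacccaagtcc
Ins2: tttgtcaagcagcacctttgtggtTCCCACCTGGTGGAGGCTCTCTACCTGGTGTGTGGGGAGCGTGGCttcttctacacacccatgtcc
The segment lies in exon 2 of both transcripts, at chr19:52264720-52264764 on the plus strand for Ins1 and at chr7:142679393-142679437 on the minus strand for Ins2. Of its 45 bases 43 are identical. Counted from 1 at the first capital base, with the Ins2 base first, the differences are T1C, which changes residue 9 of the B chain, and G12A, which is silent. Over the aligned coding sequences 300 of 324 bases (92.6%) are identical, and the longest run shared by any transcripts of these genes is 56 bases. Reads within such runs could be assigned to either insulin gene, so the split between Ins1 and Ins2 may be uncertain. Their sum would also miss any such reads that were not counted. Neither the read length nor the number of reads within these runs was examined. Between any other pair of the 8 genes the longest shared run is at most 12 bases.

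Total counts ran from 52052808 to 58880189 per library, and the 8 genes together took 10.9% to 16.2% of them. Ins2 had the highest count of any gene in every library, and Ins1 ranked second in each except insB:9-23 replicate 3, where it ranked 7. Of 12 beta cell marker genes other than the hormones, 11 had counts in all 6 libraries, and Mafa, a beta cell transcription factor with a single annotated exon, had 0 counts in every library. The alpha cell factor Pou3f4, also a single-exon gene, was at 0 in every library too, while 8 of the 10 matched alpha and 7 of the 8 delta cell markers had counts throughout. The libraries also held much exocrine RNA, and the 26 acinar marker genes took a larger share than the 8 hormones in each of them: 16.3% to 19.1% of counts in the vehicle group and 18.0% to 27.5% in the insB:9-23 group, the highest share being that of insB:9-23 replicate 3.

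No hormone gene passed the test between the groups. With edgeR's quasi-likelihood test, 0 of 8 had an adjusted p below 0.05, against 0.0823% of all genes tested, and DESeq2 and limma-voom also called 0 of 8 (against 0.555% and 0.0999% of all genes). At an unadjusted p below 0.05 there was 1 of 8 (12.5%, against 5.55% of all genes) with each of the 3 tools, and it was Ppy. Log2 folds were above 0 for 5 members and below 0 for 3, with a median of 0.0064, where the median of all genes tested was 0.0087. In CPM (counts scaled to TMM library sizes) the 2 groups overlapped for all 8 genes, whereas 13.5% of all genes tested had groups that did not overlap.

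**Figure D1:**
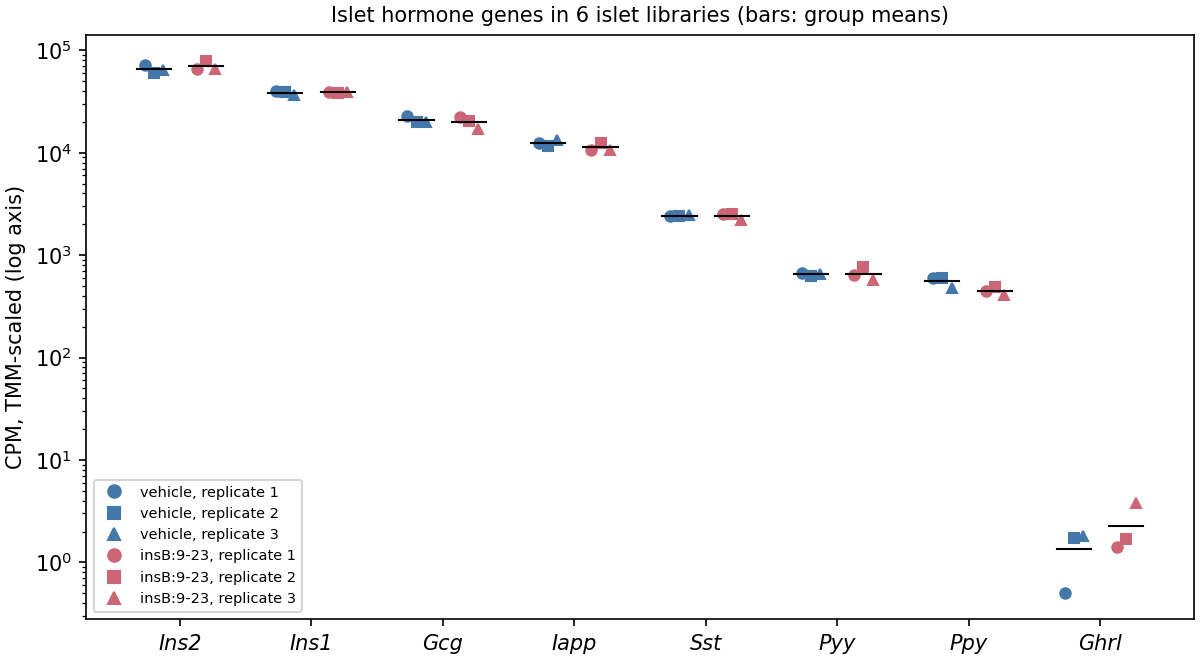
Level of each hormone gene in each library, in CPM on a log axis; colours mark the groups, symbols the replicates and short bars the group means. The groups overlap for every gene, from Ins2 near the top of the axis to Ghrl at 0.507 to 3.76 CPM.

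Ins2, the insulin gene conserved with other mammals, stood at 71122, 60248 and 63779 CPM across the vehicle libraries, in order of replicate, and at 66162, 78101 and 65606 CPM across the insB:9-23 libraries. The highest level was that of insB:9-23 replicate 2, and the other treated libraries lay within the vehicle range. Its log2 fold was 0.10 ± 0.14 (SE; edgeR adjusted p = 0.93), with a 95% interval of -0.23 to 0.44. Ins1, the rodent-specific insulin gene, stood at 40146, 39356 and 36385 CPM across the vehicle libraries and at 39177, 38018 and 39444 CPM after insB:9-23, so that all 3 treated libraries lay within the vehicle range. Its log2 fold was 0.01 ± 0.10 (SE; edgeR adjusted p = 0.99), with a 95% interval of -0.24 to 0.26. Summed over both genes, insulin was at 103678 ± 6579 CPM with vehicle and 108836 ± 6309 CPM after insB:9-23 (SD, n = 3 each). The log2 fold of the sum was 0.07 ± 0.13 (SE; edgeR adjusted p = 0.95), with an interval of -0.25 to 0.39. In bulk RNA, fewer cells of a type and less RNA per cell cannot be told apart.

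The ratio of Ins2 to Ins1 counts does not depend on library size. It was 1.77, 1.53 and 1.75 across the vehicle libraries and 1.69, 2.05 and 1.66 after insB:9-23. Only insB:9-23 replicate 2 lay outside the vehicle range. The mean log2 ratio differed by 0.09 ± 0.12 (SE), less than the spread between replicates (exact permutation test, two-sided, p = 0.60). Leaving out insB:9-23 replicate 2 brought the difference to -0.0047.

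Iapp, encoding amylin, was at 12363, 11749 and 13245 CPM with vehicle and 10719, 12462 and 10692 CPM after insB:9-23. Replicates 1 and 3 of the treated group lay below every vehicle library and replicate 2 within their range. The log2 fold was -0.14 ± 0.11 (SE; edgeR adjusted p = 0.90), with a 95% interval of -0.40 to 0.12. Relative to insulin the groups separated. There were 11.1, 11.8 and 13.2 Iapp counts per 100 insulin counts across the vehicle libraries and 10.2, 10.7 and 10.2 in the treated ones, a difference of -0.21 ± 0.08 on the log2 scale (SE).

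Gcg, encoding proglucagon, the precursor of glucagon, was at 22852, 19821 and 20077 CPM with vehicle. In insB:9-23 replicates 1 to 3 it was at 22276, 20639 and 16882 CPM, and only the last of these lay below the vehicle range. The log2 fold was -0.07 ± 0.14 (SE; edgeR adjusted p = 0.96), with a 95% interval of -0.41 to 0.27. Without insB:9-23 replicate 3, the library richest in acinar RNA, the fold was 0.04. Per 100 insulin counts there were 20.5, 19.9 and 20.0 Gcg counts with vehicle and 21.1, 17.8 and 16.1 after insB:9-23. The vehicle libraries agreed closely (20.2 ± 0.335, SD, n = 3), while the treated libraries spread on both sides of them (18.3 ± 2.58, SD, n = 3).

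Sst, encoding somatostatin, which restrains insulin and glucagon release, stood at 2387, 2415 and 2458 CPM with vehicle and at 2525, 2527 and 2226 CPM after insB:9-23. Treated replicates 1 and 2 lay above the vehicle range and replicate 3 below it. The log2 fold was 0.0035 ± 0.08 (SE; edgeR adjusted p = 0.99), with a 95% interval of -0.19 to 0.20, the narrowest of the 8. Its ratio to Gcg was 10.4, 12.2 and 12.2 per 100 with vehicle and 11.3, 12.2 and 13.2 per 100 after insB:9-23, overlapping between the groups.

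Ppy, encoding pancreatic polypeptide, had the smallest p of the 8 genes. It stood at 604.0, 603.0 and 482 CPM with vehicle and at 445, 488 and 408 CPM after insB:9-23. Vehicle replicate 3 lay just below insB:9-23 replicate 2, and otherwise the treated libraries were lower. The log2 fold was -0.33 ± 0.12 (SE; unadjusted p = 0.029, edgeR adjusted p = 0.88), with a 95% interval of -0.62 to -0.05. Per 100 insulin counts there were 0.543, 0.605 and 0.481 Ppy counts with vehicle and 0.422, 0.420 and 0.388 after insB:9-23, and these groups did not overlap. The difference was -0.40 ± 0.10 on the log2 scale (SE), a ratio of 0.758. Relative to Gcg the values were 2.64, 3.04 and 2.40 per 100 with vehicle and 1.997, 2.37 and 2.41 per 100 after insB:9-23, which overlap. Beside these values stand the acinar share given above and the share of 6 PP and epsilon cell markers. The marker share was 0.00786% to 0.00946% of counts with vehicle and 0.00614% to 0.00917% after insB:9-23. Etv1 (1712 to 2560 counts per library), Acsl1 (940 to 1542) and Tspan8 (744 to 1116) held most of these marker counts. Fev (29 to 452), Aqp3 (0 to 12) and Mboat4 (0 to 8) added little, so the share mainly follows the first 3 genes. With a covariate for the acinar share, the log2 fold of Ppy was -0.19 (edgeR, unadjusted p = 0.16). It was -0.20 when libraries were scaled to 12 pan-endocrine granule genes (edgeR, unadjusted p = 0.17). That scaling also moved the median log2 fold of all genes, from 0.0087 to 0.14. Under the other alternatives that kept all libraries, the unadjusted p of Ppy ran from 0.013 (edgeR, replicate block) to 0.048 (edgeR, library totals alone). Leaving out 1 library gave unadjusted edgeR p-values from 0.0056 (without vehicle replicate 3) to 0.091 (without insB:9-23 replicate 3). Ppy passed under none of these alternatives after adjustment.

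Pyy, encoding peptide YY, lies 5357 bases from Ppy on chromosome 11 (Ppy at 102099930 to 102101319, Pyy at 102106676 to 102107832, both on the minus strand of GRCm38). It was at 672, 629 and 651 CPM with vehicle and 643, 763 and 567 CPM after insB:9-23. The treated libraries fell within, above and below the vehicle range. Its log2 fold was 0.02 ± 0.11 (SE; edgeR adjusted p = 0.99), with a 95% interval of -0.26 to 0.30. The Pyy to Ppy ratio was 1.11, 1.04 and 1.35 with vehicle and 1.45, 1.56 and 1.39 after insB:9-23, so the groups did not overlap, and the difference was 0.33 ± 0.12 on the log2 scale (SE).

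Ghrl, encoding ghrelin, was the only scarce member, with 32, 107 and 96 counts with vehicle and 82, 96 and 172 after insB:9-23. These are 0.507, 1.71 and 1.799 CPM with vehicle, with counting intervals (exact Poisson, 95%) of 0.346 to 0.715, 1.41 to 2.07 and 1.46 to 2.20 CPM. After insB:9-23 they are 1.40, 1.71 and 3.76 CPM, with intervals of 1.11 to 1.74, 1.38 to 2.08 and 3.22 to 4.36 CPM. Vehicle replicate 1 stood apart below and insB:9-23 replicate 3 above the other 4 libraries, beyond counting error in both cases. The log2 fold of 0.77 ± 0.61 (SE; edgeR adjusted p = 0.90) had a 95% interval of -0.73 to 2.27, and it was 0.38 without vehicle replicate 1, 0.22 without insB:9-23 replicate 3 and -0.0021 with a covariate for the acinar share. A gene model on the opposite strand that overlaps Ghrl, Gm44033, had 24 counts in insB:9-23 replicate 1 and 0 elsewhere, and without a stated strand setting reads of the 2 genes cannot be told apart.

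**Figure D2:**
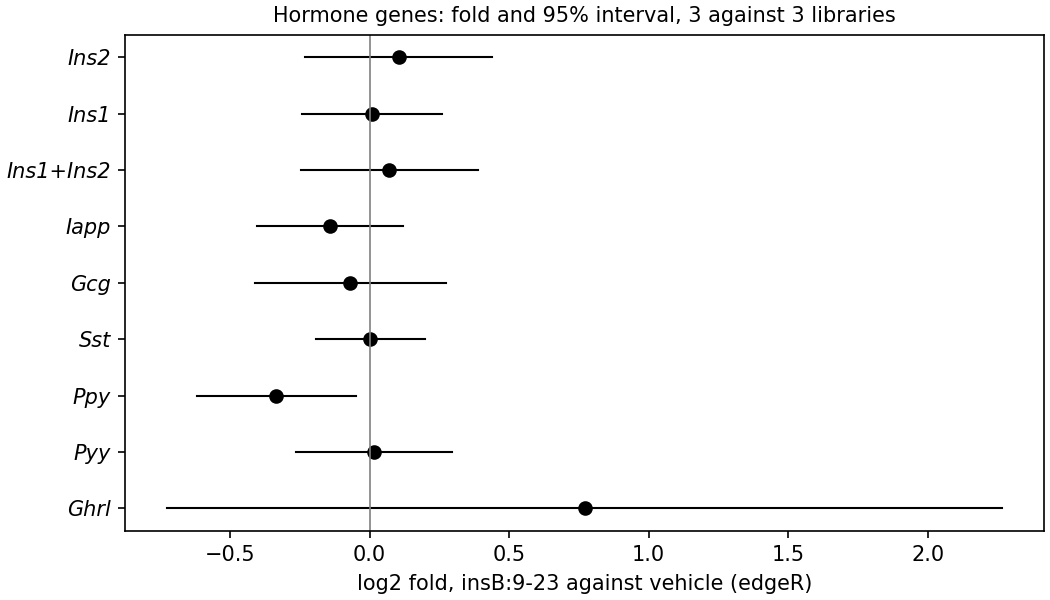
Log2 fold of each hormone gene and of summed insulin, insB:9-23 against vehicle, with edgeR's 95% interval as a line. The interval of Ppy alone (-0.62 to -0.05) leaves out 0 before adjustment, and that of Ghrl is the widest.

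Levels can be set against each other only per length. In CPM per kb of merged exons, the order by mean over the 6 libraries was Ins2 (51450), Ins1 (36492), Gcg (13671), Iapp (12189), Sst (3360), Pyy (1037), Ppy (1010) and Ghrl (1.68). Ins2 exceeded Ins1 by 1.24 to 1.66 times in all 6 libraries, and by 1.15 to 1.54 times per kb of coding sequence. Merged exons of all annotated transcripts span 1312 bases for Ins2 and 1062 for Ins1, whereas Ins2-201 has 478 bases and Ins1-201 has 1062. The size of this ratio thus depends on the length used. Neighbours overlapped in 2 places: Gcg exceeded Iapp in 5 of 6 libraries, and Pyy exceeded Ppy in 4 of 6. The 2 in which Ppy was higher were vehicle replicates 1 and 2. Per kb of coding sequence Iapp (42551) came before Gcg (37823), so the order of that pair depends on the length used, while the other 6 ranks were the same. Each of the remaining neighbouring pairs kept 1 order in all 6 libraries without overlap of ranges.

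As shares of all gene counts, the 8 hormones took 16.2%, 14.3% and 14.1% across the vehicle libraries and 14.2%, 16.0% and 10.9% across the treated ones, in order of replicate. The lowest share was in the library with the highest acinar share, and the remaining treated libraries lay inside the vehicle range. The means were 14.9% ± 1.20 and 13.7% ± 2.57 (SD, n = 3 each; exact permutation test, two-sided, p = 0.50). With acinar and amylase genes left out of the total, the shares were 21.8%, 20.0% and 20.1% with vehicle and 20.9%, 22.4% and 19.5% after insB:9-23 (exact permutation p = 0.80). Without insB:9-23 replicate 3 the difference in the share of all counts was 0.247 percentage points, in place of -1.14. At these depths the 95% Wilson intervals reach at most 0.0116 percentage points to either side of such shares, counting error only.

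Within the hormone counts, insulin took 74.1%, 73.9% and 73.1% with vehicle and 74.2%, 75.9% and 77.3% after insB:9-23. The groups did not overlap, but the lowest treated value (74.2%) and the highest vehicle value (74.1%) nearly met. The means were 73.7% ± 0.545 and 75.8% ± 1.57 (SD, n = 3 each; exact permutation p = 0.10, the smallest that 3 against 3 can give). Without insB:9-23 replicate 3 the difference of 2.13 percentage points was 1.37. Gcg held 15.2%, 14.7% and 14.6% of hormone counts with vehicle and 15.7%, 13.5% and 12.4% after insB:9-23. Iapp held 8.23%, 8.71% and 9.66% with vehicle and 7.55%, 8.15% and 7.87% after insB:9-23, without overlap. Beta cell markers other than the hormones took 0.473% to 0.570% of all counts with vehicle and 0.349% to 0.468% after insB:9-23. As shares of all counts, these also move with the acinar share. Alpha cell markers took 0.369% to 0.401% and 0.291% to 0.383%, and delta cell markers 0.0187% to 0.0227% and 0.0134% to 0.0212%. Endothelial markers took 0.0441% to 0.0502% and 0.0335% to 0.0443%, and duct markers, higher after insB:9-23, 0.0702% to 0.0725% and 0.0752% to 0.0866%. The part of cell markers in the hormone shares was not tested.

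**Figure D3:**
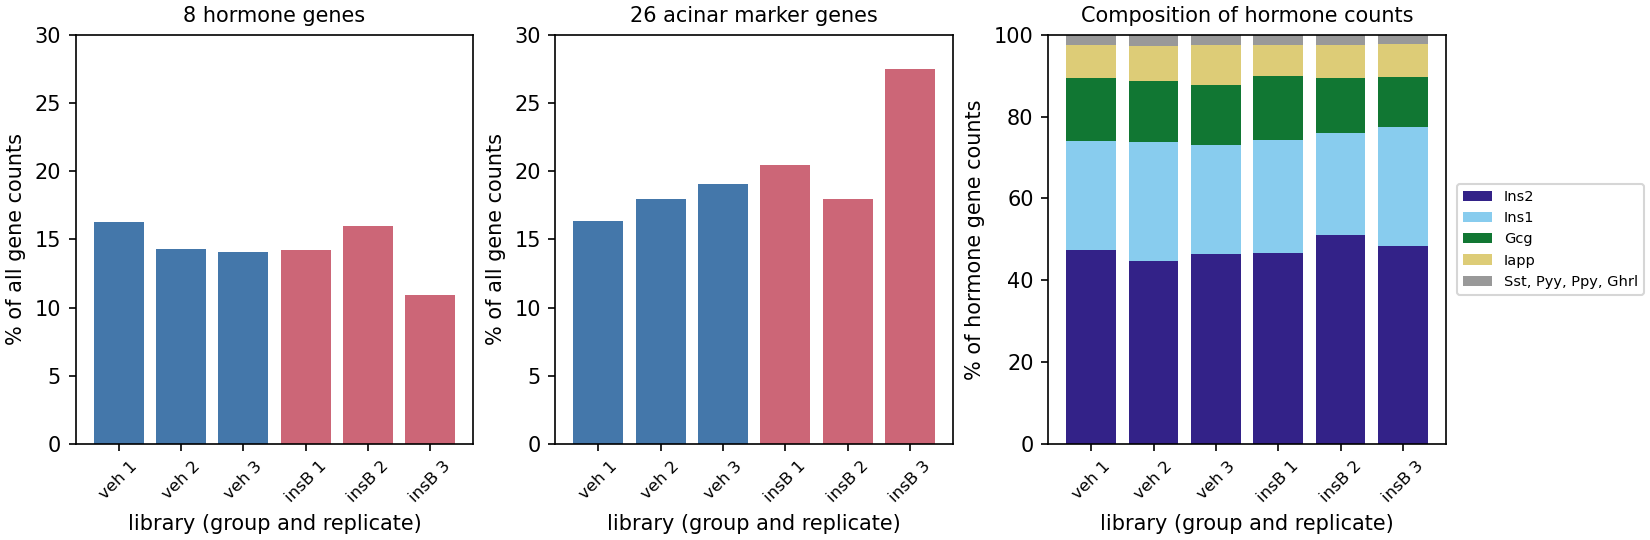
Share of all gene counts taken by the 8 hormone genes (left) and by 26 acinar marker genes (middle), and the composition of the hormone counts (right), for each vehicle (veh) and insB:9-23 (insB) library. Replicate 3 of insB:9-23 has the lowest hormone share (10.9%) and the highest acinar share (27.5%), and insulin takes 73.1% to 77.3% of hormone counts in the 6 libraries.

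Of 10 hormone ratios compared, 3 had groups that did not overlap: Iapp to insulin and Ppy to insulin, both lower after insB:9-23, and Pyy to Ppy, which was higher. Each had an exact permutation p of 0.10, the smallest possible with 3 against 3 libraries, and 0.33 after Benjamini-Hochberg adjustment over the 10, so none passed. Ratios that share a gene are not independent. Of the 6 genes set against insulin, 2 did not overlap, and among all other genes tested 12.5% had a ratio to insulin without overlap (9.4% lower and 3.11% higher after insB:9-23). The other 7 ratios overlapped between the groups, with adjusted exact permutation p-values of 0.50 to 0.70.

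**Figure D4:**
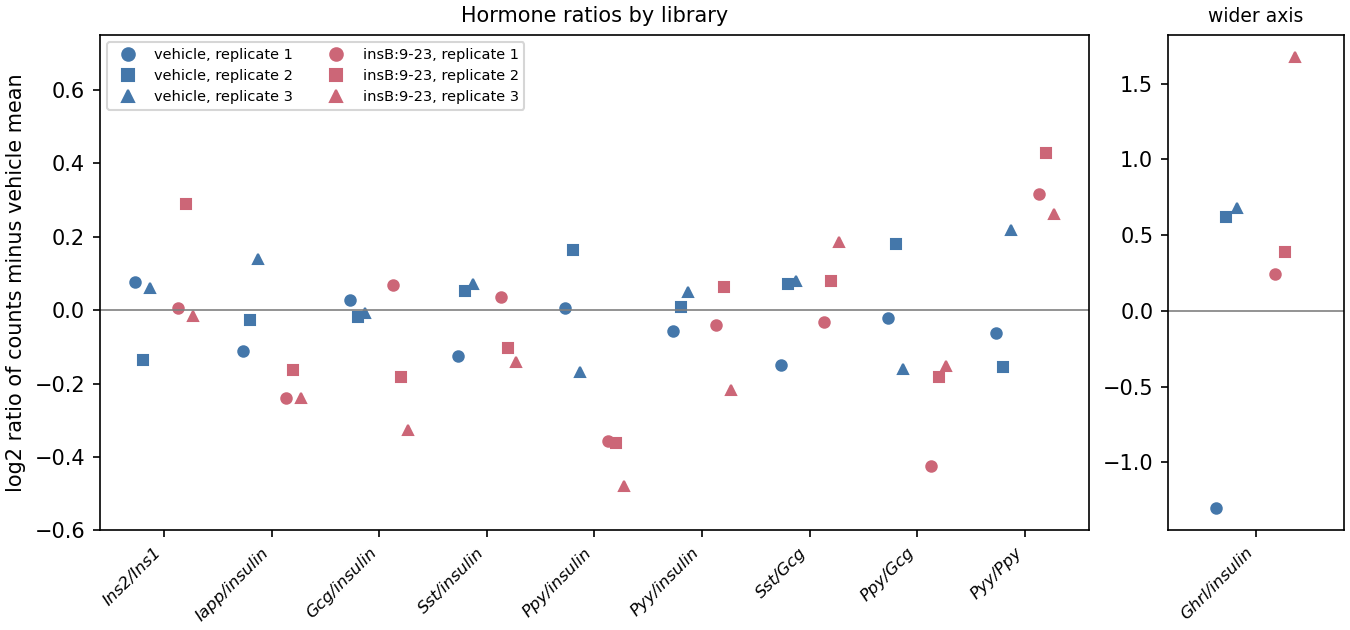
Log2 ratio of counts for 10 hormone pairs in each library, less the vehicle mean of that ratio; insulin is Ins1 and Ins2 together, and Ghrl has an axis of its own. The treated libraries lie wholly below the vehicle libraries for Iapp and Ppy to insulin and wholly above them for Pyy to Ppy.

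How closely 2 genes followed each other was measured as the SD, over the 6 libraries, of the log2 ratio of their counts. The closest hormone pairs were Ins2 with Pyy (0.096), Sst with Pyy (0.097) and Ins1 with Sst (0.10). The insulin genes followed each other less closely (0.14), and Ins2 was followed by Iapp at 0.16. Ppy was the most distant from the rest, at 0.20 to 0.27 with each of the other 6 abundant hormones. It was also distant from genes at large, with a median SD of 0.28 over all genes compared, where the other 6 had medians of 0.16 to 0.22. The SD runs over both groups, so a difference between the groups adds to it. These values describe 6 libraries, and many other genes lay nearer: among 8322 other genes with a mean of at least 10 CPM and counts in every library, Pyy ranked 206 in closeness to Ins2, and Sst ranked 1488 in closeness to Ins1. The closest of all named genes was Nxf1 for Ins1 (0.019), Zfp280d for Ins2 (0.023), Itpr2 for Iapp (0.028), Ndn for Gcg (0.035), Stxbp4 for Sst (0.018), Hpf1 for Pyy (0.031) and Spata6 for Ppy (0.084). Next came Osbpl6 and Tnpo3 for Ins1, Psme2 and Rnf4 for Ins2, Wdpcp and Limch1 for Iapp, and Prkd1 and Slc35c1 for Gcg. For Sst they were Tspan7 and Ap1s1, for Pyy Prkcz and Aatf, and for Ppy St8sia3 and Med13l. Ghrl had no close follower, the nearest named genes being Ifitm3 (0.30), Zfp652 (0.37) and Reep5 (0.44).

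**Figure D5:**
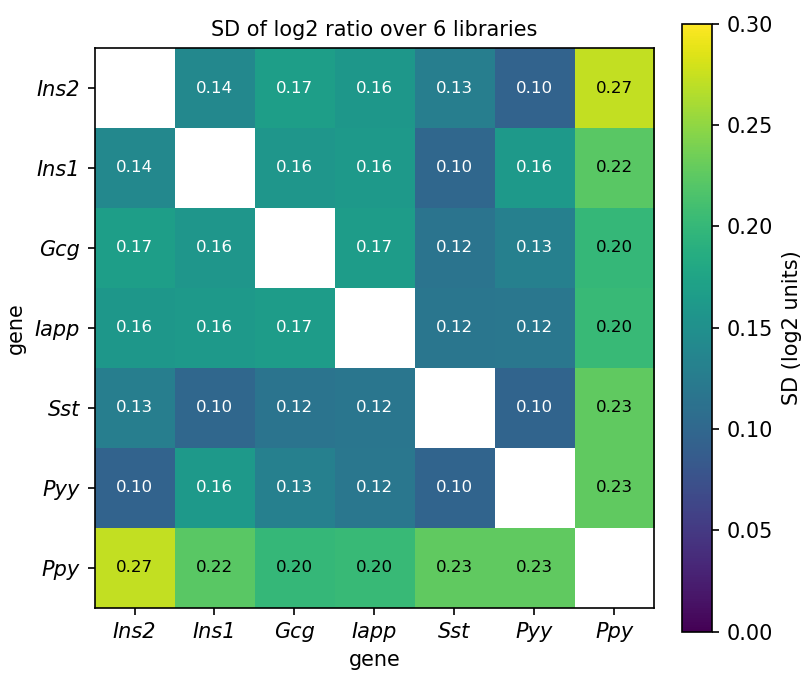
SD over 6 libraries of the log2 ratio of counts for each pair of the 7 abundant hormone genes, with the colour scale in log2 units. The row of Ppy holds the largest values, 0.20 to 0.27, and Ins2 with Pyy the smallest, 0.096.

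The genes that act on these hormones showed no called change. Of 24 transcription factors of hormone genes and their cells, 19 were tested and 0 passed the edgeR test, against 0.0823% of all genes. With DESeq2 and limma-voom 0 passed too, against 0.555% and 0.0999% of all genes. At shares this low, 0 calls say little about lists of this size. At an unadjusted edgeR p below 0.05 there were 2 factors (10.5%), against 5.55% of all genes. Their median log2 fold was 0.0030, with 10 above 0 and 9 below. Groups did not overlap for 3 of the 19 with higher and 1 with lower treated levels, against 13.5% of all genes in both directions. In this and the next lists some genes are named for a small p, so their separation is no further result. Hhex, a delta cell factor that maintains Sst expression, was at 11.7 ± 0.996 CPM with vehicle and 15.2 ± 2.13 CPM after insB:9-23. Isl1, an islet homeobox factor, was at 61.5 ± 1.96 and 69.2 ± 6.40 CPM (SD, n = 3, with edgeR adjusted p = 0.88 for both). For both genes the treated libraries lay above every vehicle library, but the groups nearly met. The highest vehicle and lowest treated values were 12.76 and 12.79 CPM for Hhex and 63.7 and 64.1 CPM for Isl1. Among the most abundant, Pax6 was at 208 ± 1.06 and 198 ± 5.69 CPM, lower without overlap, and Mlxipl, a glucose-responsive factor, at 254 ± 40.7 and 257 ± 43.8 CPM. Neurod1, an activator of insulin transcription, was at 23.4 CPM in vehicle replicate 2 and at 173 to 187 CPM in the other 5 libraries. Insm1, Mafa, Pax4 and Pou3f4 had 0 counts in every library. Of these, Insm1, Mafa and Pou3f4 have a single annotated exon, whereas each of the 8 hormone genes has several. The genes at 0 are named because of these values.

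Of 19 genes that process, fold or pack prohormones, 18 were tested and 0 passed the edgeR test, against 0.0823% of all genes. With DESeq2 and limma-voom 0 passed too, against 0.555% and 0.0999% of all genes. At an unadjusted edgeR p below 0.05 there was 1 (5.56%), near the 5.55% of all genes. The median log2 fold was -0.04, with 11 of 18 below 0. Groups did not overlap for 3 of the 18, all lower after insB:9-23, against 13.5% of all genes in both directions. Pcsk2, the convertase that cuts proglucagon and takes part in cutting proinsulin, was at 3406, 3237 and 3519 CPM with vehicle and 2687, 1893 and 2903 CPM after insB:9-23. All treated libraries lay below the vehicle range, with a log2 fold of -0.44 ± 0.17 (SE; edgeR adjusted p = 0.88). Scg2, a granin, was at 4978 ± 274 and 3853 ± 822 CPM, also lower without overlap, Ero1lb, which drives proinsulin disulphide formation, at 1986 ± 183 and 1751 ± 138 CPM, and Chga, chromogranin A, at 9690 ± 427 and 9703 ± 1161 CPM (SD, n = 3).

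Of 20 receptors and receptor subunits for the islet hormones and their relatives, 13 were tested. The edgeR test passed 0 of them, against 0.0823% of all genes. With DESeq2 and limma-voom 0 passed too, against 0.555% and 0.0999% of all genes. At an unadjusted edgeR p below 0.05 there were 2 (15.4%), against 5.55% of all genes. The median log2 fold was -0.11, with 8 of 13 below 0. Groups did not overlap for 2 of the 13 with higher and 1 with lower treated levels, against 13.5% of all genes in both directions. Glp1r, the receptor of the Gcg product GLP-1, was at 199, 210 and 193 CPM with vehicle and 176, 167 and 175 CPM after insB:9-23, without overlap. Its log2 fold was -0.22 ± 0.06 (SE; edgeR adjusted p = 0.88). Among somatostatin receptors, Sstr2 was at 2.36 ± 0.0948 and 3.27 ± 0.349 CPM (SD, n = 3), higher without overlap, and Sstr3 was at 13.2 CPM in insB:9-23 replicate 1 and at 155 to 172 CPM in the other 5 libraries. Ramp1, a subunit of amylin receptors, was at 9.30 ± 0.822 and 12.3 ± 2.63 CPM, also higher without overlap, and Insrr, a relative of the insulin receptor, at 467 ± 71.2 and 482 ± 96.3 CPM.

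Of 25 other peptide hormone genes, 17 were tested and 0 passed the edgeR test, against 0.0823% of all genes. With DESeq2 and limma-voom 0 passed too, against 0.555% and 0.0999% of all genes. At an unadjusted edgeR p below 0.05 there were 0, against 5.55% of all genes. The median log2 fold was -0.07, with 8 above 0 and 9 below. Groups did not overlap for 1 of the 17, lower after insB:9-23, against 13.5% of all genes in both directions. Ucn3, the urocortin of mature beta cells that stimulates Sst release, was at 279, 275 and 289 CPM with vehicle and 251, 267 and 226 CPM after insB:9-23, without overlap (log2 fold -0.18 ± 0.08, SE; edgeR adjusted p = 0.88). Nucb2, the nesfatin precursor, was at 177 ± 18.0 and 202 ± 27.7 CPM, and Pdyn, the prodynorphin gene, at 86.4 ± 9.08 and 79.1 ± 10.7 CPM (SD, n = 3). Nmb, encoding neuromedin B, was at 0.288 to 0.729 CPM in the 6 libraries, and Penk, the proenkephalin gene, at 1.93 CPM in insB:9-23 replicate 1 and at most 0.699 CPM elsewhere.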

How the data were processed

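The values analysed are whole-number read counts for each Ensembl gene, deposited by the authors in a separate table for every library. According to the submitters' processing notes, the tools were HISAT, featureCounts (1.5.0-p3) and DESeq (1.8.3) and the build GRCm38, with no role or order stated. Neither the annotation release nor the strand setting nor the handling of multi-mapping reads is given there. Symbols, positions and lengths came from GENCODE M21 (GRCm38), which matched 55240 of 55421 gene IDs, and unmatched IDs took no more than 0.0030% of a library's counts. Sample titles gave the groups and replicate numbers.

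All genes were tested with edgeR 4.0.16 (R 4.3.3), that is those kept by filterByExpr (17016), with TMM scaling and the robust quasi-likelihood F test, and p-values were adjusted by Benjamini and Hochberg over all of them (threshold 0.05). Standard errors are the log2 fold divided by the root of F, and intervals use the t quantile of the fitted degrees of freedom. Total counts of 52052808 to 58880189 put 3 counts at 0.0475 to 0.0655 CPM. Ratios and shares were compared by exact permutation over the 6 libraries (SciPy 1.17.1), which cannot go below 0.10. Alternatives used limma 3.58.1, DESeq2 1.42.0, other scalings and filters, an acinar covariate, a replicate block and each library left out. From each gene list the text names the 3 tested members with the smallest p and the 3 most abundant, and for each hormone the 3 closest genes, predicted genes left out. Some genes that this rule would name are not reported here. Members and lists were chosen with earlier results of these data known.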

Additional observations from a re-analysis of the deposited data

How the results depend on the processing

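Under every alternative run, 0 of the 8 hormone genes and 0 members of the 4 gene lists passed the test, while the count over all genes went from 14 to between 0 (replicate block) and 106 (DESeq2). Iapp and Ppy each had a log2 fold below 0 under all 17 alternatives, of -0.28 to -0.0063 and -0.48 to -0.19, and the folds of the other 6 changed sign under some. With library totals alone, where the median over all genes was -0.15, Ins1 was at -0.15, Ins2 at -0.039, Sst at -0.14 and Pyy at -0.12. With scaling to the pan-endocrine genes, where that median was 0.14, Gcg was at 0.055. With the acinar covariate Gcg was at 0.10 and Ghrl at -0.0021. Sst was at -0.0011 with limma-voom and at -5.7e-05 with no filter on low counts. Leaving out 1 library moved the fold to between -0.032 and 0.037 for Ins1, -0.027 and 0.065 for Sst, -0.11 and 0.11 for Pyy, and -0.15 and 0.040 for Gcg, and in all these cases the cause was not tested. The medians of the factor, processing and receptor lists were -0.16, -0.20 and -0.26 with library totals alone and 0.14, 0.09 and 0.03 with the pan-endocrine scaling. That of the receptors was 0.05 without insB:9-23 replicate 1. That of the factors was 0.07 with the acinar covariate and -0.09 without vehicle replicate 3, and that of the other peptide hormones was 0.15 with the covariate and -0.22 without insB:9-23 replicate 2. Leaving out 1 library kept the log2 differences of Iapp to insulin at -0.27 to -0.14, Ppy to insulin at -0.48 to -0.32 and Pyy to Ppy at 0.26 to 0.44. Deviations of the libraries from their group means correlated at -0.03, -0.07 and -0.01 across genes for equal replicate numbers 1 to 3. For unequal numbers they correlated at -0.04 to 0.07. The labels do not say if equal numbers mark pairs, and with 3 libraries per group these correlations cannot decide it. With a replicate block 0 hormone genes passed, and Ppy was at -0.33 (edgeR adjusted p = 0.93). Among the members only Ghrl had few counts (32 to 172 per library), and its outlying libraries differed beyond counting error. The effect of depth was not tested.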
